A study of Mus musculus with 4 samples.

Results

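The genes described here are 6 parts and partners of the phagocyte NADPH oxidase, Cybb, Cyba, Ncf1, Ncf4, Rac2 and Hvcn1, which were taken by symbol from the 31253 genes of the count matrices; all 6 had a row. They were measured by single-cell RNA sequencing of the injured brain hemisphere of adult male and/or female mice. The injury was a stroke made by tMCAO, the passing occlusion and reopening of the middle cerebral artery, and brains were taken at 3 days. Ms4a3 cKO (2 libraries) stands for mice meant to lose Htr2b, which encodes a serotonin receptor, in cells that had once expressed Ms4a3, a gene of granulocyte and monocyte progenitors. Flox control (2 libraries) stands for Htr2b flox/flox littermates. All mice received tamoxifen with a 3-day washout before surgery, and cells were loaded on the BD Rhapsody platform without enrichment. The design text writes the first genotype as Htr2b ERCre; Ms4a3-Cre and the genotype label says C57B6, so the labels do not settle which Cre allele acted or whether it spared microglia. Nothing in the labels ties each library to its own animal, so the p-values reflect only how far these samples spread, which could be technical.

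The phagocyte NADPH oxidase moves electrons from NADPH across a membrane onto oxygen and so makes superoxide, which phagocytes use against microbes and which is studied as a source of oxidative injury after stroke. Cybb (gp91phox, NOX2) carries the electrons and is held in the membrane by Cyba (p22phox). Cytosolic proteins, Ncf1 (p47phox) and Ncf4 (p40phox) among them, join these when a cell is stimulated, together with a Rac GTPase, which in neutrophils is largely Rac2. Each electron leaves a charge behind, and the proton channel Hvcn1 lets protons out to balance it. In the brain, microglia carry the oxidase at rest, and neutrophils, monocytes and macrophages bring it with them when they enter injured tissue.

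In the GENCODE annotation of GRCm38, Cybb lies on the minus strand at chrX:9435252-9487771, Cyba on the minus strand at chr8:122424776-122432930 and Ncf1 on the minus strand at chr5:134220053-134229625. Ncf4 lies on the plus strand at chr15:78244801-78262580, Rac2 on the minus strand at chr15:78559167-78572783 and Hvcn1 on the plus strand at chr5:122206804-122242297. Each is a protein-coding gene. A gene on the opposite strand overlaps Cyba (Gm20388), Ncf1 (Gtf2ird2) and Hvcn1 (Tctn1), and whether the counting used strand is not given in the sources used here, so reads of these pairs could be mixed. RefSeq promoters of GRCm38.p6, 250 bases before to 50 bases after the start, were given for 3 of the 6 genes. Those of Cybb and Ncf1 are shown because these 2 genes share most of the cells described below but rank the classes differently. Capitals mark every match, on either strand, to GAGGAA (letters of the leukocyte factor PU.1), a second motif of GAAA, any 2 bases and GAAA (letters of interferon response factors) and CCAAT, both factor families being known regulators of the human CYBB gene. The Cybb window is chrX:9469275-9469574 and the Ncf1 window chr5:134229576-134229875, both on the minus strand and printed 5′ to 3′.
Cybb: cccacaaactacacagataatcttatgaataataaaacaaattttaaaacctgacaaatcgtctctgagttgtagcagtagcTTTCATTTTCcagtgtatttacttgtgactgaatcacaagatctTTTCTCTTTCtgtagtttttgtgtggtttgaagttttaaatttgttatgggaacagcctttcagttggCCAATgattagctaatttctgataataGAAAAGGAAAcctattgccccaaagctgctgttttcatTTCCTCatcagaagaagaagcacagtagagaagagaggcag
Ncf1: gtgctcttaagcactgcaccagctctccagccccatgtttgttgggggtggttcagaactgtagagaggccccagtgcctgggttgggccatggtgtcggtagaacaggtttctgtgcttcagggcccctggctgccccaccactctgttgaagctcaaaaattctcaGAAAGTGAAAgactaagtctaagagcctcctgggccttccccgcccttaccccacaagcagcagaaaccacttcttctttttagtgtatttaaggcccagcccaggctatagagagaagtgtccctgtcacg

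The Cybb window held 3 matches to the GAAA motif, 1 on the strand shown at bases 222 to 231 from its first base and 2 on the other strand, at 83 to 92 and 127 to 136. It also held CCAAT at 195 to 199 and, on the other strand, GAGGAA at 260 to 265, just past the start. The Ncf1 window held 1 match, GAAAGTGAAA at 169 to 178, and the Cyba window held none of the 3 motifs. None of these matches overlapped another. Of 32851 promoters of the same length, 28.3% held GAGGAA, 3.44% the GAAA motif, 37.4% CCAAT and 1.17% both of the first pair. A match describes letters in the window and not binding.

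The deposited values are raw UMI counts (unique molecular identifiers, 1 per captured RNA molecule), with 77580518 and 84397197 UMIs in Ms4a3 cKO 1 and 2 and 105566650 and 105545311 UMIs in Flox control 1 and 2. After filtering, 59685 cells remained, and cells held 3764 and 4004 UMIs at the median in the Ms4a3 cKO libraries against 6599 and 5523 in the Flox control libraries. They fell into 30 clusters, of which 28 were called microglia-like, neutrophil-like and so on from marker genes and are given here by the class name alone; the oxidase genes took no part in the clustering. All 12 microglial, 14 monocyte-macrophage, 10 border macrophage and 13 neutrophil markers had UMIs in every library of their class. A UMI in a summed class does not by itself support its name. For clusters 3, 5 and 23, called monocyte-macrophages, and cluster 9, called microglia, the best-scoring marker list was that of another class or state. The best scores of clusters 3 and 5 were below 0 (-0.21 and -0.19). Cluster 2, called microglia, had 1 of 12 microglial markers counted as raised. In Flox control 1 and 2, cluster 5 had 9107 and 5695 CPM of the microglial list against 3720 and 5455 CPM of the monocyte-macrophage list. The names of these clusters are therefore weakly supported. The libraries filled the classes unevenly. Flox control 1 held 3242 of its microglia in cluster 4 and 2830 of its monocyte-macrophages in cluster 5, clusters that held 141 and 329 and 15 and 26 cells in Ms4a3 cKO 1 and 2 and 335 and 286 cells in Flox control 2. Results are therefore also given without Flox control 1. Htr2b had 10.8 and 26.5 CPM (the usual depth-scaled unit, UMIs of the gene relative to all UMIs of the same class and library) in Ms4a3 cKO monocyte-macrophages against 81.6 and 128 CPM in Flox control ones, a log2 fold change of -2.64 that did not pass edgeR's quasi-likelihood test with Benjamini-Hochberg adjustment (adjusted p = 0.365). In microglia it had 101 and 86.1 CPM in Ms4a3 cKO against 46.2 and 109 CPM in Flox control. The log2 fold change of Htr2b was also below 0 in dendritic cells (-7.25), endothelial cells (-2.31) and border macrophages (-0.81). It was 0.14 to 0.57 in microglia, oligodendrocytes, astrocytes and choroid plexus, and none of these passed. The labels do not say which exons are floxed, so reads from the 3′ end need not report the deletion.

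The 6 genes belonged to leukocytes. Microglia, monocyte-macrophages, border macrophages (the macrophages of meninges and vessels), neutrophils, dendritic cells and T or NK cells together held 93.5 to 99.2% of each gene's UMIs in each library, although they made up 61.3 and 54.4% of the cells in the Ms4a3 cKO libraries and 85.2 and 65.6% in the Flox control libraries. Background was read from cells that should largely lack the oxidase, and it differed between them. Whether these UMIs came from free RNA was not tested. In oligodendrocytes, at the low end, Cybb averaged 14.2 ± 5.00 CPM, Ncf1 11.6 ± 5.30, Rac2 2.97 ± 0.502, Cyba 1.34 ± 0.450, Hvcn1 0.787 ± 0.723 and Ncf4 0.703 ± 0.350 CPM (SD over 4 libraries). Choroid plexus was far higher, with 122 ± 46.4 CPM of Cybb, 112 ± 73.04 CPM of Ncf1 and 6.67 ± 3.07 CPM of Hvcn1, and astrocytes had 88.3 ± 48.5 CPM of Cybb and 64.2 ± 27.7 CPM of Ncf1. The Cybb level of choroid plexus in Flox control 1, 163 CPM, thus reached the lowest microglial library, and the mean Hvcn1 level of neutrophils was no higher than that of choroid plexus. Since clusters came from the same cells, class levels are given as a description, with no test.

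Cybb, the catalytic subunit, was highest in dendritic cells, at 1284 and 1333 CPM in the Ms4a3 cKO libraries and 1914 and 1299 CPM in the Flox control libraries. Monocyte-macrophages had 898 and 1056 CPM in Ms4a3 cKO and 1848 and 1194 CPM in Flox control. These 2 classes overlapped with each other and with border macrophages (951 ± 332 CPM, SD, n = 4) and neutrophils (908 ± 605 CPM). Microglia followed after a gap, with 162 and 256 CPM in Ms4a3 cKO and 277 and 188 CPM in Flox control. No microglial library reached the lowest neutrophil library, Ms4a3 cKO 1 at 324 CPM. Because microglia were numerous and monocyte-macrophages rich in it, monocyte-macrophages held 47.6 to 76.3% of all Cybb UMIs of a library and microglia 10.6 to 39.6%.

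Cyba, the partner that holds Cybb in the membrane, gave far flatter levels. It was highest in monocyte-macrophages, with 72.0 and 63.9 CPM in Ms4a3 cKO and 55.3 and 91.5 CPM in Flox control, and this range did not meet that of neutrophils, the next class, at 53.2 and 51.1 CPM against 34.6 and 44.0 CPM. Microglia (41.1 ± 7.41 CPM), dendritic cells (40.5 ± 14.2 CPM) and border macrophages (40.1 ± 9.85 CPM) overlapped with neutrophils and with each other. The gap that set microglia apart for Cybb was therefore not seen for Cyba.

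Ncf1, the organizer of the cytosolic complex, had another order. Neutrophils led with 1082 and 1111 CPM in Ms4a3 cKO and 1212 and 1295 CPM in Flox control, and no other class reached them. Border macrophages had 557 and 580 CPM in Ms4a3 cKO and 322 and 424 CPM in Flox control, and microglia had 458 and 540 CPM in Ms4a3 cKO and 383 and 431 CPM in Flox control. Monocyte-macrophages (373 ± 89.4 CPM) and dendritic cells (336 ± 63.1 CPM) overlapped with both. Microglia were thus among the classes highest in Ncf1 and held 44.0 to 72.8% of its UMIs, against their lower place for Cybb.

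Ncf4, which binds phosphoinositides and steadies the complex on phagosomes, was also highest in neutrophils. They had 76.8 and 65.2 CPM in Ms4a3 cKO and 75.6 and 82.9 CPM in Flox control, above every other class. Dendritic cells (26.9 ± 9.66 CPM), T or NK cells (22.3 ± 9.47 CPM), monocyte-macrophages (20.9 ± 7.94 CPM) and microglia (12.5 ± 1.94 CPM) overlapped with their neighbours in that order. Border macrophages had the least of the leukocytes, 10.1 ± 2.16 CPM, and stood clear of choroid plexus at 4.57 ± 1.05 CPM.

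Rac2, a GTPase that switches the oxidase on, was shared by neutrophils and lymphocytes. Neutrophils had 587 and 347 CPM in Ms4a3 cKO and 1008 and 335 CPM in Flox control, and T or NK cells had 223 and 481 CPM in Ms4a3 cKO and 964 and 304 CPM in Flox control. Flox control 1 was the highest library in both, and also in microglia (174 CPM), monocyte-macrophages (207 CPM), border macrophages (177 CPM) and dendritic cells (266 CPM), while the order of the other libraries differed between classes. In microglia the other 3 libraries lay close together, at 98.9 and 88.9 CPM in Ms4a3 cKO and 91.4 CPM in Flox control 2.

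Hvcn1, the proton channel, was the only one of the 6 with its highest level in microglia, at 17.8 and 19.6 CPM in Ms4a3 cKO and 22.95 and 24.5 CPM in Flox control. Dendritic cells (13.7 ± 5.15 CPM) and monocyte-macrophages (10.7 ± 5.41 CPM) followed, and every neighbour in the order overlapped. In neutrophils it stood at 2.40 and 8.82 CPM in Ms4a3 cKO and 6.30 and 9.06 CPM in Flox control, from 2 to 7 UMIs per library, so its level there is poorly measured. Microglia held 52.3 to 82.6% of its UMIs.

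**Figure D1:**
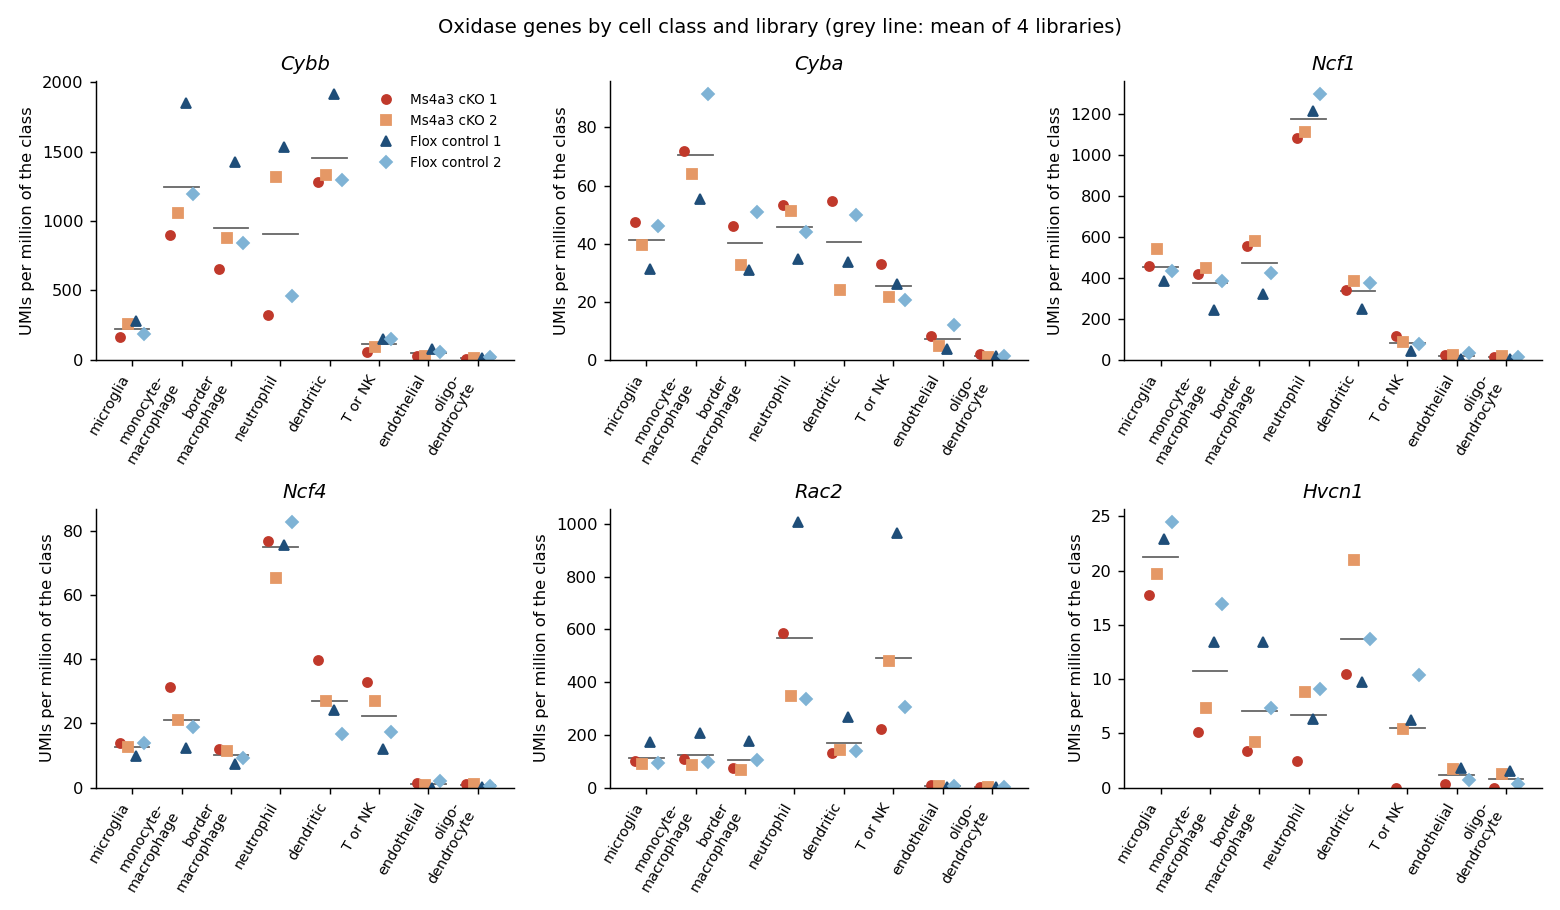
Levels of the 6 oxidase genes in cell classes, in CPM of the class (y axis, linear), with 1 point for each Ms4a3 cKO and Flox control library and a grey line at the mean of 4 libraries. Cybb is lower in microglia than in the 4 other myeloid classes, with a wide spread between the neutrophil libraries. Ncf1 and Ncf4 peak in neutrophils, and Hvcn1 peaks in microglia.

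Ratios of UMIs within a class show the shift from class to class without a common denominator; they compare classes, and not how many proteins of each kind a cell has. Cybb UMIs per Ncf1 UMI in microglia were 0.354 and 0.473 in Ms4a3 cKO and 0.723 and 0.437 in Flox control. In monocyte-macrophages the same ratio was 2.15 and 2.37 in Ms4a3 cKO and 7.55 and 3.12 in Flox control. The lowest monocyte-macrophage library was thus above the highest microglial library, and in each of the 5 myeloid classes the highest ratio was that of Flox control 1. Hvcn1 UMIs per Cybb UMI ran the other way, at 0.110 and 0.0768 in Ms4a3 cKO microglia and 0.0830 and 0.130 in Flox control microglia. Monocyte-macrophages had 0.00574 and 0.00697 in Ms4a3 cKO and 0.00724 and 0.0142 in Flox control, again with no overlap between the classes. Ncf4 UMIs per Ncf1 UMI had medians of 0.0277 in microglia, 0.0498 in monocyte-macrophages and 0.0632 in neutrophils, with a microglial range of 0.0237 to 0.0322 that overlapped with neither of the others.

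**Figure D2:**
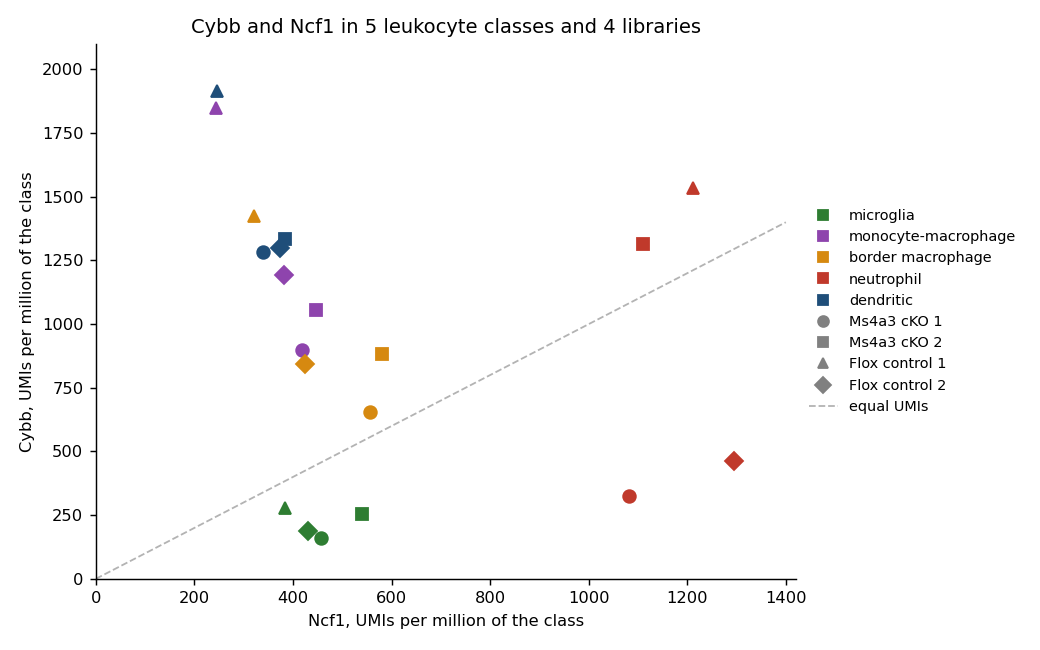
Cybb (y axis) against Ncf1 (x axis), both in CPM of the class on linear axes, with 1 point per library in 5 leukocyte classes and a dashed line of equal UMIs. Microglia lie below the line, monocyte-macrophages, border macrophages and dendritic cells above it, and neutrophils far to the right, 2 libraries above the line and 2 below it.

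Shares of cells tell whether a level rests on many cells. Each cell with at least 1000 UMIs was thinned to 1000, and shallower cells were left out of the shares, 18 to 33 monocyte-macrophages, 22 to 52 microglia and 8 to 224 endothelial cells per library. Of the neutrophils, 90 and 34 were left out in Ms4a3 cKO 1 and 2 and 3 and 115 in Flox control 1 and 2. Exact binomial intervals (95%) cover counting error only. Cybb was found in 52.2% (50.4 to 54.1) and 57.4% (54.8 to 59.8) of thinned monocyte-macrophages of Ms4a3 cKO 1 and 2, against 80.3% (79.1 to 81.6) and 63.8% (62.4 to 65.2) of those of Flox control 1 and 2. In microglia it was found in 9.71% (8.86 to 10.6) and 16.8% (15.8 to 17.7) of Ms4a3 cKO cells, against 16.1% (15.1 to 17.1) and 11.7% (10.7 to 12.7) of Flox control cells. Endothelial cells, which were taken as background, gave a median of 3.19%, and the unthinned medians were 93.4% in monocyte-macrophages, 37.2% in microglia and 5.53% in endothelial cells. Median depth was 6332.5 to 10576 UMIs per monocyte-macrophage, 5046 to 6509.5 per microglial cell and 2171 to 3218 per endothelial cell. Ncf1 was found in a median of 58.1% of thinned neutrophils, 35.5% of microglia, 31.3% of monocyte-macrophages and 2.05% of endothelial cells. In neutrophils Cybb was found in a median of 18.05% of thinned cells, close to the 13.9% of microglia, although the neutrophil level of 908 ± 605 CPM stood above the 221 ± 54.4 CPM of microglia (SD, n = 4).

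Within neutrophils, Cybb was higher in a small group of cells rich in the secondary granule genes Camp, Ngp and Ltf, which neutrophils make while they mature. This split was chosen after the data were seen and is a description: granule-rich cells had at least 1% of their UMIs from these 3 genes, granule-poor cells under 0.2%, and 98 cells lay between. There were 8 and 26 rich cells in Ms4a3 cKO 1 and 2 and 16 and 6 in Flox control 1 and 2, against 1180 and 257 and 139 and 502 poor cells. Cybb had 2057 and 4828 CPM in the rich cells of Ms4a3 cKO and 6185 and 8128 CPM in those of Flox control. The poor cells had 268 and 150 CPM in Ms4a3 cKO and 213 and 208 CPM in Flox control, which overlaps with the microglial range of 162 to 277 CPM. The ratio of rich to poor was 7.68 to 39.0 across libraries. The rich cells made up 0.629 and 8.87% of neutrophils in Ms4a3 cKO and 10.1 and 1.18% in Flox control, and held 9.31 and 88.1% of the class's Cybb UMIs in Ms4a3 cKO and 86.4 and 55.3% in Flox control. The neutrophil libraries with the larger shares of rich cells, Ms4a3 cKO 2 and Flox control 1, were those with the higher Cybb levels of the class.

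The ratio of Cybb was above that of Ncf1, Rac2, Cyba and Ncf4. The ratio of rich to poor was 1.20 to 2.96 for Ncf1, 0.849 to 2.61 for Rac2, 0.781 to 1.97 for Cyba and 0.488 to 2.26 for Ncf4, the last 2 from 13 UMIs or fewer in the rich cells of a library. Hvcn1 had 0 to 3 UMIs in the rich cells of a library, too few to compare. Ncf1 remained high in the poor cells, at 1069 and 744 CPM in Ms4a3 cKO and 1070 and 1277 CPM in Flox control. Mki67, a gene of dividing cells, was higher in the rich cells of every library (2.51 to 26.03 times), and Il1b was lower (0.00181 to 0.0757 times). The Mki67 level rests on few UMIs in Ms4a3 cKO 1 and Flox control 2, which had 8 and 6 rich cells. Of markers of other cells, the microglial list was at 0.300 to 0.404 times its level in the poor cells. The monocyte-macrophage list was at 1.76 to 6.73 times and included Chil3, at 7831 to 19532 CPM in the rich cells, a gene that maturing neutrophils also express. Other genes of this list did not move alike, with Plac8 at 0.898 to 5.05 times, Ccr2 at 0 to 2.05 times and Ms4a7 at 0 to 0.879 times. In every library the rich cells held more UMIs per cell on average than the class as a whole. Whether some of the rich cells were joined to a monocyte was not tested.

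**Figure D3:**
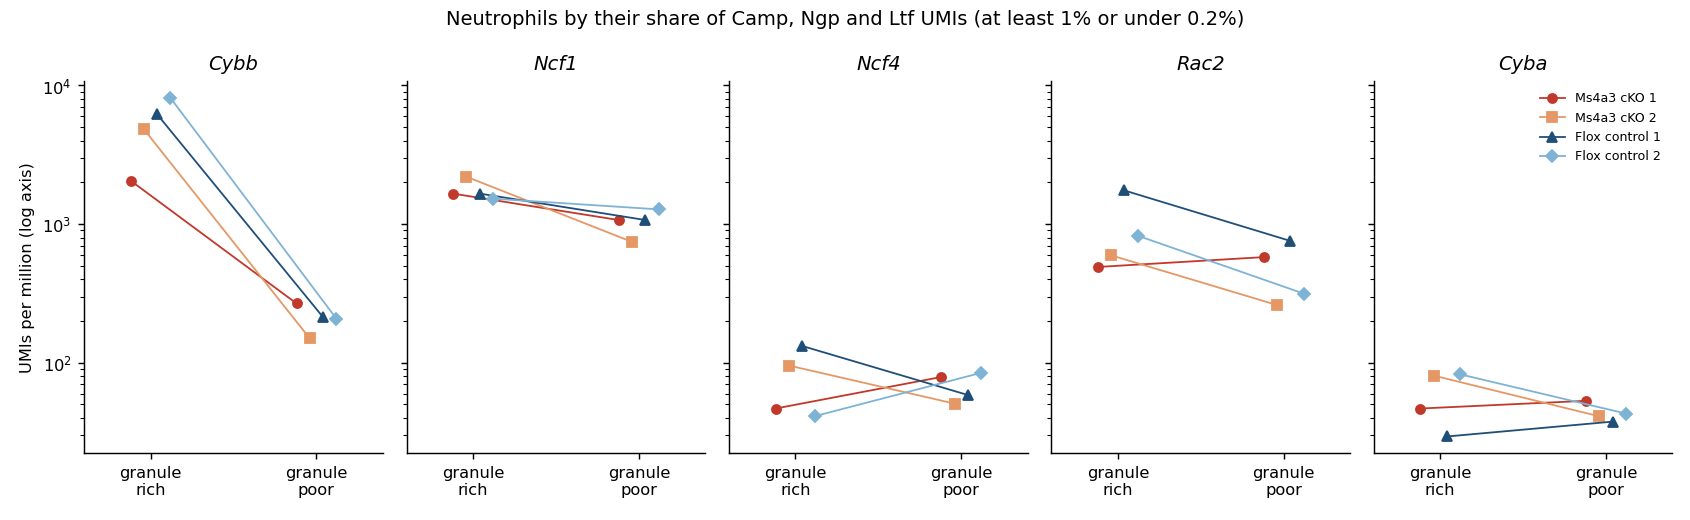
Levels of Cybb, Ncf1, Ncf4, Rac2 and Cyba in granule-rich (left) and granule-poor (right) neutrophils, in CPM on a log axis, with 1 line per library. Cybb is 7.68 to 39.0 times higher in the rich cells, while the other genes plotted differ by less and, for Ncf4, Rac2 and Cyba, not in the same direction in every library.

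The clusters of a class also differed. Among monocyte-macrophages Cybb was highest in cluster 14, led by the monocyte genes Chil3, Ccr2 and Plac8, at 1532 and 2043 CPM in Ms4a3 cKO and 3460 and 2517 CPM in Flox control. Hvcn1 was low there, at 3.34 and 3.22 CPM in Ms4a3 cKO and 2.06 and 2.30 CPM in Flox control, against 8.48 to 22.2 CPM in cluster 3. Ncf4 was also high in cluster 14, with 57.8 and 37.0 CPM in Ms4a3 cKO and 30.9 and 41.4 CPM in Flox control. Among microglia Cybb was highest in cluster 4, led by the interferon-induced genes Ifit3 and Cxcl10, at 581 and 543 CPM in Ms4a3 cKO and 328 and 338 CPM in Flox control. Hvcn1 was highest in clusters 0 and 7, led by Siglech and, in cluster 7, P2ry12, with 21.5 to 35.8 CPM and 23.2 to 36.2 CPM over the 4 libraries. Ncf1 differed less between the microglial clusters and was lowest in cluster 9, led by cell cycle genes, at 367 and 395 CPM in Ms4a3 cKO and 250 and 302 CPM in Flox control.

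**Figure D4:**
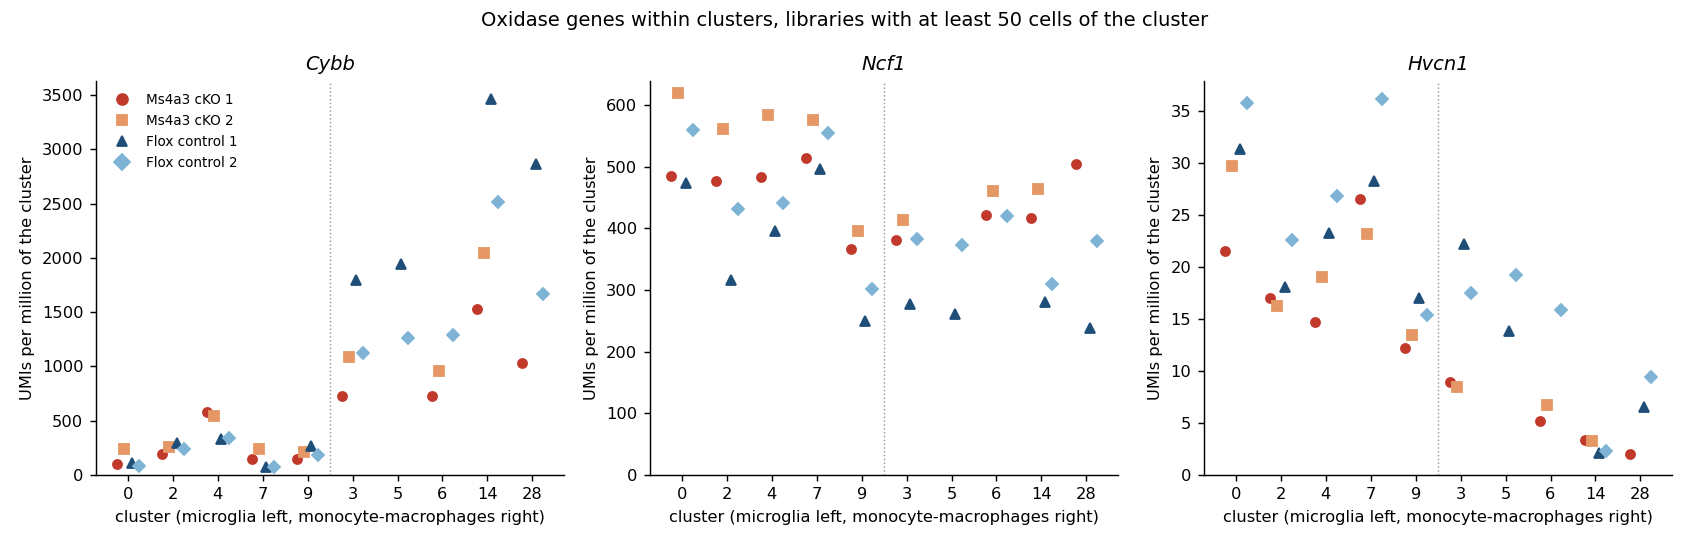
Levels of Cybb, Ncf1 and Hvcn1 within clusters of microglia (left of the dotted line) and monocyte-macrophages (right of it), in CPM of the cluster on linear axes, with 1 point for each library that holds at least 50 cells of the cluster. Cybb is highest in cluster 14 and, among microglia, in cluster 4, and Hvcn1 is low in cluster 14.

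The genes whose levels ran most like those of the oxidase genes were sought by Pearson's r of log2(CPM + 1) over 44 sums, 11 classes in 4 libraries, among 7290 genes with a mean of at least 20 CPM. The points share libraries and depth, and r largely follows the gap between leukocytes and other cells. Cybb ran most like Lyz2 (lysozyme), Actr3 (a part of the actin-branching Arp2/3 complex) and Cd300a, an inhibitory receptor of myeloid cells. Ncf4 ran most like Coro1a (an actin-binding protein of leukocytes) and Igsf6, at r = 0.96. Rac2 ran most like Myo1f, Nfkbid and Snx10, and Ncf1 most like Gcnt1, Plek and Igsf6. Cyba ran most like Cd300c2, Frrs1 and Lyn, and Hvcn1 most like Il10ra, Tmem273 and Mpeg1 (at r = 0.91 to 0.88). Between the oxidase genes themselves r was 0.80 for Cybb and Ncf1 over these sums, but -0.25 over the 20 sums of the 5 myeloid classes alone. There Ncf4 and Ncf1 kept an r of 0.71, while Hvcn1 and Ncf1 had -0.46.

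The design asks whether removing Htr2b from infiltrating myeloid cells changes them and the resident microglia. For the oxidase genes, no difference between Ms4a3 cKO and Flox control passed edgeR's quasi-likelihood test with Benjamini-Hochberg adjustment: 0 of 29 tested pairs of gene and myeloid class. That test called 0% of all genes in microglia, 0% in monocyte-macrophages, 0% in neutrophils, 0.0206% in dendritic cells and 0.825% in border macrophages. At an unadjusted p under 0.05, 1559 of 14352 genes in microglia and 1524 of 13206 in monocyte-macrophages lay below it, among them Hvcn1 in both. DESeq2 called 2.13, 3.32, 0.659, 0.801 and 2.05% of genes in these 5 classes in the same order and 1 of 30 pairs, Hvcn1 in monocyte-macrophages. With no filter on low counts edgeR called 0.264, 3.43, 0.895, 1.61 and 3.48% of genes and 2 of 30 pairs, Hvcn1 in monocyte-macrophages (-1.48) and Rac2 in border macrophages (-1.03). Hvcn1 in neutrophils was untested under the filter. Differences are log2 fold changes of Ms4a3 cKO over Flox control, with a standard error (SE).

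Among monocyte-macrophages, Ncf1 and Ncf4 had log2 fold changes above 0 and the 4 other genes below 0, none past the test. In monocyte-macrophages the levels of Cybb given above, 898 and 1056 CPM in Ms4a3 cKO against 1848 and 1194 CPM in Flox control, did not overlap; their log2 fold change was -0.86 with an SE of 0.37 (adjusted p = 0.444 by edgeR's quasi-likelihood test). Hvcn1 had 5.15 and 7.36 CPM in Ms4a3 cKO against 13.4 and 16.9 CPM in Flox control, also without overlap, and its log2 fold change was -1.44 with an SE of 0.27 (adjusted p = 0.365 by edgeR, 0.00253 by DESeq2). Ncf1, at 418 and 446 CPM against 245 and 382 CPM, and Ncf4, at 31.4 and 21.2 CPM against 12.2 and 19.003 CPM, were higher in both Ms4a3 cKO libraries than in either Flox control library. Their log2 fold changes were 0.32 (SE 0.18) and 0.61 (SE 0.27), and neither passed. Rac2 had 107 and 86.7 CPM against 207 and 95.02 CPM and overlapped. In this class 4 of the 6 genes had groups without overlap, where 48% of all genes tested did, so that the count is near the background.

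The clusters that made up this class were not the same in the 2 genotypes. Cluster 6 held 1624 and 908 cells in Ms4a3 cKO and 20 and 469 in Flox control, cluster 14 held 957 and 138 against 123 and 245, and most of the Flox control cells were in clusters 5 and 3. The summed level of the 14 monocyte-macrophage markers was 21603 and 14718 CPM in Ms4a3 cKO and 3763 and 7887 CPM in Flox control, and that of the 12 microglial markers was 2860 and 3722 CPM in Ms4a3 cKO and 8742 and 4595 CPM in Flox control. Their part in the differences was not tested. Within cluster 3 alone Cybb had a log2 fold change of -0.71 (adjusted p = 0.585) and within cluster 14 alone -0.73 (adjusted p = 0.372), by edgeR's quasi-likelihood test. Hvcn1 within cluster 3 had 8.88 and 8.48 CPM in Ms4a3 cKO against 22.2 and 17.5 CPM in Flox control. Its log2 fold change there was -1.15 (adjusted p = 0.309, edgeR). Within cluster 14 both Ms4a3 cKO libraries were above both Flox control libraries, but at only 2.06 to 3.34 CPM. With 123 and 245 Flox control cells this rests on few UMIs, so the order in cluster 14 is poorly measured.

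In microglia the 6 genes gave log2 fold changes between -0.68 (Rac2) and 0.16 (Ncf1), and none passed edgeR's test. Ncf1 was higher, and Hvcn1 lower, in both Ms4a3 cKO libraries than in either Flox control library; that is 2 of 6 genes without overlap, against 50% of all genes tested. Cybb overlapped in the class as a whole (log2 fold change -0.32, SE 0.34), while single clusters gave other values. In cluster 7 it had 149 and 242 CPM in Ms4a3 cKO against 76.2 and 70.0 CPM in Flox control, or 1.29 on the log2 scale (SE 0.26, adjusted p = 0.0813 by edgeR's quasi-likelihood test), and in cluster 4 the log2 fold change was 0.70 (SE 0.17, adjusted p = 0.486). In both clusters the Ms4a3 cKO libraries were above the Flox control libraries. How many of all genes did not overlap was not counted within clusters, and in microglia as a class it was 50%. Fits of single clusters were added after the data were seen. Clusters 0, 2 and 9 were fitted as well, and their fold changes are not given here. In cluster 7 the monocyte-macrophage marker list summed to 2159 and 618 CPM in Ms4a3 cKO and 147 and 378 CPM in Flox control, while Lyz2 had 1347 and 1061 CPM in Ms4a3 cKO and 1837 and 1656 CPM in Flox control and endothelial Cybb was 25.1 and 26.2 CPM against 81.6 and 57.5 CPM. The part of free RNA in this difference was not tested further.

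In border macrophages Rac2 had 72.3 and 68.1 CPM in Ms4a3 cKO against 177 and 105 CPM in Flox control, or -1.03 on the log2 scale (SE 0.29, adjusted p = 0.201 by edgeR). The value was 0.59 for Ncf1 (SE 0.18) and -1.41 for Hvcn1 (SE 0.56) and passed for neither, where Hvcn1 rests on 5 to 20 UMIs per library. These 3 and Ncf4 did not overlap between the groups, 4 of 6 genes against 44.3% of all genes tested. In neutrophils Cyba (higher in Ms4a3 cKO) and Ncf1 (lower in Ms4a3 cKO) had groups without overlap, as had 33.1% of all genes tested. In dendritic cells Ncf4 (higher in Ms4a3 cKO) had groups without overlap, as had 39.9% of all genes tested. Cybb in neutrophils had 324 and 1315 CPM in Ms4a3 cKO against 1534 and 461 CPM in Flox control. With the granule-poor cells alone its log2 fold change was -0.01 (adjusted p = 0.999, edgeR), against -0.48 (adjusted p = 0.999) with all neutrophils.

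**Figure D5:**
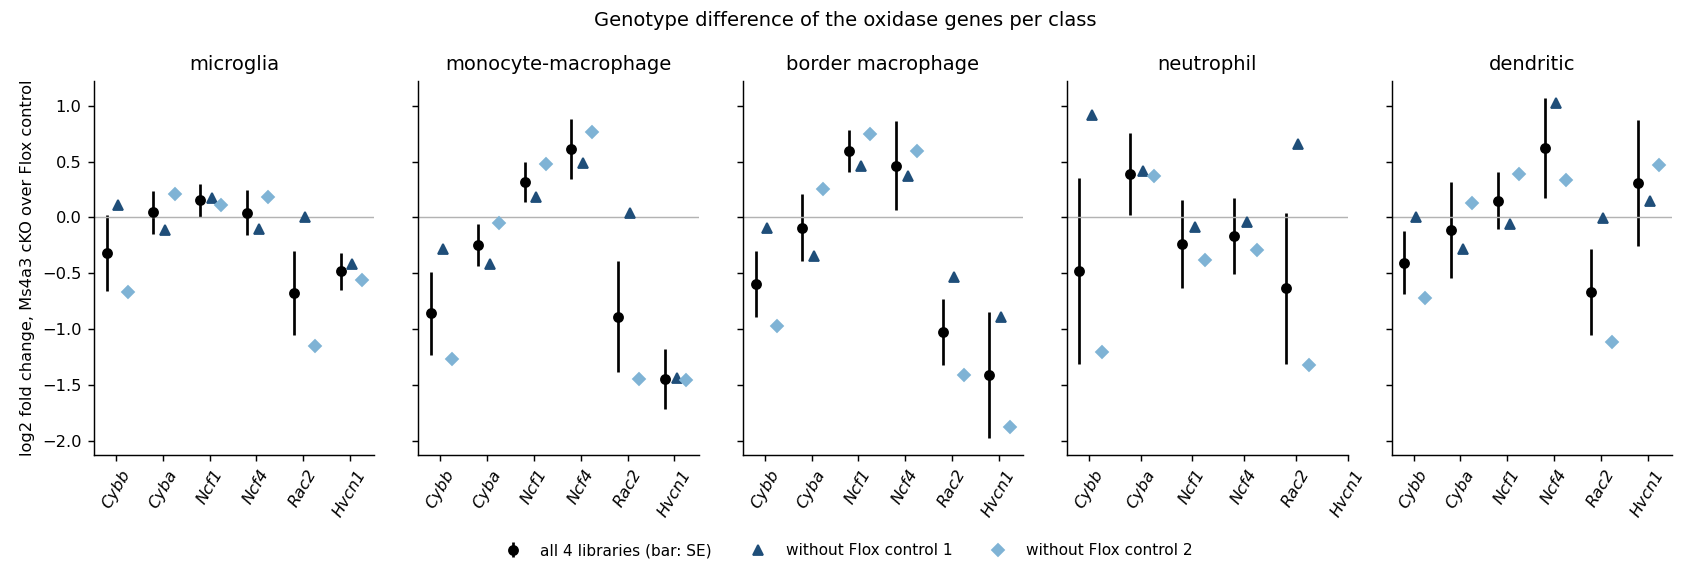
Log2 fold changes (y axis) of Ms4a3 cKO over Flox control for the 6 oxidase genes in myeloid classes, from edgeR, with bars of 1 standard error and further points for the fits without Flox control 1 and without Flox control 2. Rac2 moves to about 0 without Flox control 1 in microglia and monocyte-macrophages, while Hvcn1 stays below 0 in microglia, monocyte-macrophages and border macrophages.

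These differences depended on which Flox control library was kept. Without Flox control 2, edgeR called 11 of 29 pairs, but it also called 31.9% of all genes in microglia, 31% in monocyte-macrophages, 17.2% in border macrophages and 16.9% in dendritic cells. The 11 were lower Rac2 in these 4 classes, lower Cybb in the last 3, lower Hvcn1 in microglia and monocyte-macrophages, and higher Ncf1 in monocyte-macrophages and border macrophages. Without Flox control 1 it called 0 of 29, and 0.566, 1.4, 6.45 and 2.16% of all genes in the same classes. Rac2 then had a log2 fold change of 0.00 in microglia and 0.04 in monocyte-macrophages, against -0.68 and -0.89 with all 4 libraries, and Cybb in microglia had 0.12. Hvcn1 in monocyte-macrophages kept its size, between -1.71 and -1.21, when each library was left out in turn.

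Whether the genotype difference itself differed between cell types was tested by an interaction term, fitted over both classes while blocking on library, where edgeR called 0% of genes for monocyte-macrophages minus microglia. None of the 6 genes passed. The difference of the log2 fold changes was -0.95 for Hvcn1 (SE 0.19, adjusted p = 0.368), -0.44 for Cybb (SE 0.19, adjusted p = 0.533) and 0.57 for Ncf4 (SE 0.21, adjusted p = 0.497), by edgeR's quasi-likelihood test with Benjamini-Hochberg adjustment. Without Flox control 2 that for Hvcn1 was -0.92 (adjusted p = 0.0308), where 9.95% of genes were called. For neutrophils minus microglia 0.863% of genes were called and none of the 6, with an adjusted p of 1 for each.

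Rac1, the widely expressed relative of Rac2, had 536 and 584 CPM in Ms4a3 cKO microglia and 677 and 583 CPM in Flox control microglia, and did not pass in any myeloid class. Rac2 UMIs per Rac1 UMI had medians of 0.900 in neutrophils and 0.989 in T or NK cells, against 0.171 in microglia, 0.159 in monocyte-macrophages and 0.00476 in oligodendrocytes. Of the other genes of oxidase assembly and maturation that were measured, none passed edgeR's adjusted test in microglia, monocyte-macrophages or neutrophils, and the smallest p went to Rap1a (-0.25) and Rac1 (-0.32) in microglia, Rap1a (-0.29) and Cybc1 (-0.27) in monocyte-macrophages, and Nrros (-0.91) and Cybc1 (-0.18) in neutrophils.

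The lists around the oxidase gave the same picture, with no member past edgeR's adjusted test in microglia, monocyte-macrophages, neutrophils or dendritic cells. Of 10 genes that control Rac, the smallest p went to Rasgrp4 (log2 fold change 2.21) and Arhgap15 (0.54) in microglia, Arhgap15 (0.55) and Arhgap25 (-0.34) in monocyte-macrophages, and Rasgrp4 (-0.66) and Tiam1 (-0.74) in neutrophils. Of 19 kinases and lipid enzymes of oxidase activation these were, among others, Pak1 (-0.57) in microglia, Btk (-0.60) and Pik3cg (-0.36) in monocyte-macrophages, and Plcg2 (-0.74) and Pak1 (-0.99) in neutrophils. Of 12 transcription factors they were, among others, Cebpb (0.74) in microglia, Irf2 (0.77) and Cebpb (1.47) in monocyte-macrophages, and Irf1 (-1.36) and Rela (0.91) in neutrophils. Cebpb, a factor of myeloid cells in inflammation, was higher in Ms4a3 cKO border macrophages (log2 fold change 1.22, SE 0.21, adjusted p = 0.0477 by edgeR's quasi-likelihood test). This was the only call of these lists in a myeloid class and lay just under the threshold, where 0.825% of all border macrophage genes were called.

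Of 10 genes that use or remove superoxide, 7 were measured in microglia and monocyte-macrophages. Catalase (Cat), which breaks down hydrogen peroxide, had a log2 fold change of -0.82 in monocyte-macrophages and -0.55 in microglia and did not pass in either. The mitochondrial superoxide dismutase Sod2 had 152 and 152 CPM in Ms4a3 cKO microglia against 82.1 and 117 CPM in Flox control microglia, a log2 fold change of 0.48 that did not pass. Prdx1 in monocyte-macrophages (-0.78) and Sod1 (-1.10) and Prdx1 (-0.82) in neutrophils were the others with the smallest p. The other NADPH oxidases were close to absent from myeloid cells: Nox1 had 1.12 to 3.12 CPM in microglia and Nox4 had 0.15 to 0.39 CPM there. Nox1 in microglia (0.60) and monocyte-macrophages (1.04) and Duoxa1 in microglia (-3.19) did not pass. In oligodendrocytes, where 1.91% of all genes were called, Pla2g4a (-1.24), Rap1a (-1.56) and Cat (-1.78) were lower and Elmo1 (1.36) higher in Ms4a3 cKO. The oligodendrocyte clusters were not the same in the genotypes. Cluster 13, led by Ptgds and Apod, held 648 and 1227 cells in Ms4a3 cKO and 0 and 4 in Flox control. Its part in these differences was not tested.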

How the data were processed

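Deposited were raw UMI counts per gene and cell, 1 matrix for each of 4 libraries; per the submitters' processing notes fastp 0.24.0, STARsolo and the build mm10 were used, with no role stated for any of them. Barcodes below 500 UMIs or 250 genes, or with 20% or more mitochondrial UMIs, were dropped, which kept 60942 of 63181 barcodes, and Scrublet (in scanpy 1.11.5, expected rate 6%) removed 1257 as doublets; 13 barcode sequences occurred in more than 1 library. Cells were scaled to 10000 UMIs and clustered by Leiden (leidenalg 0.10.2, resolution 1) on 30 principal components of 1999 variable genes, from which the 1 oxidase gene among them had been removed. Clusters were named from marker lists, though not always after the list that scored best. A further 2 clusters, with 7.10% of cells, stayed unnamed, so class names are rebuilt here and may differ from the study's.

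Counts were summed per library and class. Classes with at least 50 cells in each library (11 of 16) were tested with edgeR 4.0.16 (TMM scaling, filterByExpr, quasi-likelihood F test, R 4.3.3) across all genes, with Benjamini-Hochberg adjustment and a threshold of 0.05; the scripts were tested on simulated data. DESeq2 1.42.0, other scalings, filters, clusterings, thinning to 1000 UMIs and leaving out each library were the alternatives. Named genes were the 6 oxidase genes, the 3 genes most like each, and for each list and class the 2 genes with the smallest p and any past the threshold. The oxidase genes and lists were chosen with earlier results of these data known. Summed UMIs ran from 77580518 to 105566650 per library. Intervals cover counting error only. A few genes that this rule names are not reported here.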

Additional observations from a re-analysis of the deposited data

Results flagged for a closer look

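The log2 fold changes of Ncf1 had opposite signs in neutrophils and in 2 macrophage classes. Its log2 fold change of Ms4a3 cKO over Flox control was 0.32 in monocyte-macrophages and 0.59 in border macrophages, where both Ms4a3 cKO libraries were above both Flox control libraries, and -0.24 in neutrophils, where both Ms4a3 cKO libraries were below both Flox control libraries. The difference between these classes was not tested, and none of the 3 fold changes passed edgeR's adjusted test in its class. The neutrophil value had an SE of 0.39, larger than the value itself. Groups without overlap, in either direction, were common. They were found for 48% of all genes tested in monocyte-macrophages, 44.3% in border macrophages and 33.1% in neutrophils. Ncf1 was picked out for its opposite signs, so the signs alone do not show that the classes differ.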

How the results depend on the processing

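Class levels stayed within the replicate spread when 1 library was left out, but that shift could not have exceeded the spread. Leaving out 1 of the 2 libraries of a group reversed the sign of 18 genotype effects and kept that of the others. The cause was not tested. The calls over all genes then ranged from 0 to 4816 in microglia, 0 to 4099 in monocyte-macrophages, 8 to 1596 in border macrophages, 0 to 5 in neutrophils and 0 to 1187 in dendritic cells, the pairs of oxidase gene and class called from 0 to 11, and the interaction calls from 0 to 1530 (monocyte-macrophages) and 21 to 199 (neutrophils). Log2 fold changes that changed sign when a library was left out ran in microglia from -0.69 to 0.12 for Cybb, -0.11 to 0.21 for Cyba, -0.10 to 0.18 for Ncf4 and -1.15 to 0.0033 for Rac2; in monocyte-macrophages from -1.44 to 0.037 for Rac2; in border macrophages from -0.35 to 0.26 for Cyba. In neutrophils they ran from -1.68 to 0.92 for Cybb, -0.41 to 0.025 for Ncf4 and -1.32 to 0.66 for Rac2, and in dendritic cells from -0.72 to 0.0063 for Cybb, -0.88 to 0.29 for Cyba, -0.058 to 0.39 for Ncf1 and -0.26 to 0.75 for Hvcn1. Interaction values ran from -0.31 to 0.023 for Rac2 (monocyte-macrophages), and for neutrophils from -0.79 to 0.61 for Cybb, -0.52 to 0.081 for Ncf4, -0.26 to 0.63 for Rac2 and -1.02 to 0.45 for Hvcn1. DESeq2 called 277 genes in microglia, 421 in monocyte-macrophages, 170 in border macrophages, 49 in neutrophils and 57 in dendritic cells, and 1 pair; with no filter on low counts edgeR called 61, 745, 576, 157 and 282 genes in the same classes, 2 pairs and 77 interaction genes (monocyte-macrophages). With all 4 libraries and the filter it called 0, 0, 73, 0 and 2. A mean of at least 50 UMIs left 46 calls in border macrophages and 0 interaction calls for neutrophils (124 otherwise). Whether replicate numbers pair the samples could not be told. The correlation of same-numbered deviations was -0.13 in microglia, -0.19 in monocyte-macrophages and 0.25 in neutrophils. With 2 libraries of a group, crossed numbers give the same correlation with the opposite sign. A replicate block gave 10 calls in microglia, 41 in border macrophages, 10 in dendritic cells and 0 pairs. The crossed pairing, added after seeing the data, gave 41 in microglia and 37 in monocyte-macrophages. Thinning to 1000 UMIs gave 7 calls in microglia and 5 in neutrophils, reversed Cyba in microglia (-0.053), Ncf4 in neutrophils (0.059) and Ncf1 (-0.10) and Ncf4 (-0.12) in dendritic cells, and gave mean levels of 56.1 (Cybb) and 44.5 CPM (Ncf1) in T or NK cells and, for Hvcn1, 1.81 CPM in neutrophils and 19.5 CPM in dendritic cells. Leiden resolution 0.5 reversed Cyba (0.18) and Hvcn1 (-0.83, at 8.42 CPM) in dendritic cells with 6 calls there; resolution 2 gave 9 calls and RLE scaling 0. Granule-poor neutrophils alone gave 1 call. Without thinning, Cybb was found in 37.2% of microglia, 93.4% of monocyte-macrophages and 25.3% of neutrophils, and Ncf1 in 70.8% of neutrophils. Of the 18 most alike genes 7 were kept with Spearman's measure and 0 with immune classes alone. Depth limits Hvcn1 in neutrophils, border macrophages and dendritic cells.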
